A study of Mus musculus with 12 samples.

Results

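The 10 genes described here encode enzymes that make or break down prostaglandins and receptors that sense them: Pla2g4a, Ptgs1, Ptgs2, Ptges, Ptgis, Ptgds, Hpgd, Ptger2, Ptger4 and Ptgfr. They were taken by symbol from the 55573 genes of an RNA-seq count table of mouse embryonic fibroblasts (MEFs), and all 10 had enough counts to be tested. Hpgd was chosen by its measured B12 difference in these same libraries, where it had been seen to be lower with vitamin B12. Its B12 values are therefore a description and carry no test.

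Prostaglandins are short-lived lipid signals. A phospholipase A2 releases arachidonic acid from membranes, a cyclooxygenase converts it to prostaglandin H2, and terminal synthases turn that intermediate into prostaglandin E2, prostacyclin, prostaglandin D2 and related products, which act on G protein-coupled receptors of the same or neighbouring cells. Oxidation by the HPGD dehydrogenase is the first step of their inactivation. Fibroblasts are a known source of prostaglandin E2 in inflamed and healing tissue.

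MEFs came from 3 C57BL/6 embryos at E13.5 (clones 1, 2 and 3, a different embryo each), and each embryo gave 1 library to each of 4 groups. All cells carried the i4F cassette, which expresses Oct4, Sox2, Klf4 and Myc (OSKM) under doxycycline, and all were kept for 72 h in iPSC medium. The MEF group received neither agent, MEF+B12 received 2 µM vitamin B12, OSKM received 1 µg/ml doxycycline, and OSKM+B12 received both. Only induced cells received doxycycline, and its effect cannot be told apart from that of OSKM. The libraries of clone 1 carry another year in their titles than those of clones 2 and 3.

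The 12 libraries held 56971244 to 79236795 counts. Levels are given as CPM, the counts of a gene relative to the library total scaled by TMM, a normalisation that assumes most genes do not change. The 12 fibroblast markers were all tested and summed to between 88258 and 142017 CPM, while 5 pluripotency markers outside the cassette summed to at most 0.426 CPM. Transcripts of Pou5f1, which encodes Oct4, reached 2.86 and 2.33 CPM with doxycycline in clone 3, 18.5 to 20.7 CPM with doxycycline in clones 1 and 2, and at most 0.468 CPM without doxycycline. The OSKM library of clone 1 stood apart in its pseudogenes. Over 1519 of them, 120 lay more than 2-fold away from that clone's average in its remaining libraries, against 0 to 9 in the other 11 libraries.

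Per kilobase of exon, prostacyclin synthase was the most abundant of the 10 transcripts and the EP2 receptor the least. In the MEF group, Ptgis was at 18.3 ± 2.98 RPKM (CPM per kilobase of exon, mean ± SD, n = 3), Ptges at 10.0 ± 0.751, Hpgd at 9.08 ± 1.60 and Pla2g4a at 7.28 ± 0.156 RPKM. The receptors Ptgfr and Ptger4 were at 5.36 ± 0.948 and 3.89 ± 0.657 RPKM, with the cyclooxygenase Ptgs1 between them at 4.41 ± 1.18 RPKM. Ptgds was at 2.58 ± 1.3, Ptgs2 at 0.716 ± 0.281 and Ptger2 at 0.192 ± 0.120 RPKM. In this order the neighbours Ptges and Hpgd, Ptgfr and Ptgs1, Ptgs1 and Ptger4, and Ptger4 and Ptgds had mean ± SD ranges that overlapped. Of the cyclooxygenases, the constitutive Ptgs1 was above the inducible Ptgs2 per kilobase in all 12 libraries, with at least 2.85 RPKM against at most 2.38 RPKM.

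**Figure D1:**
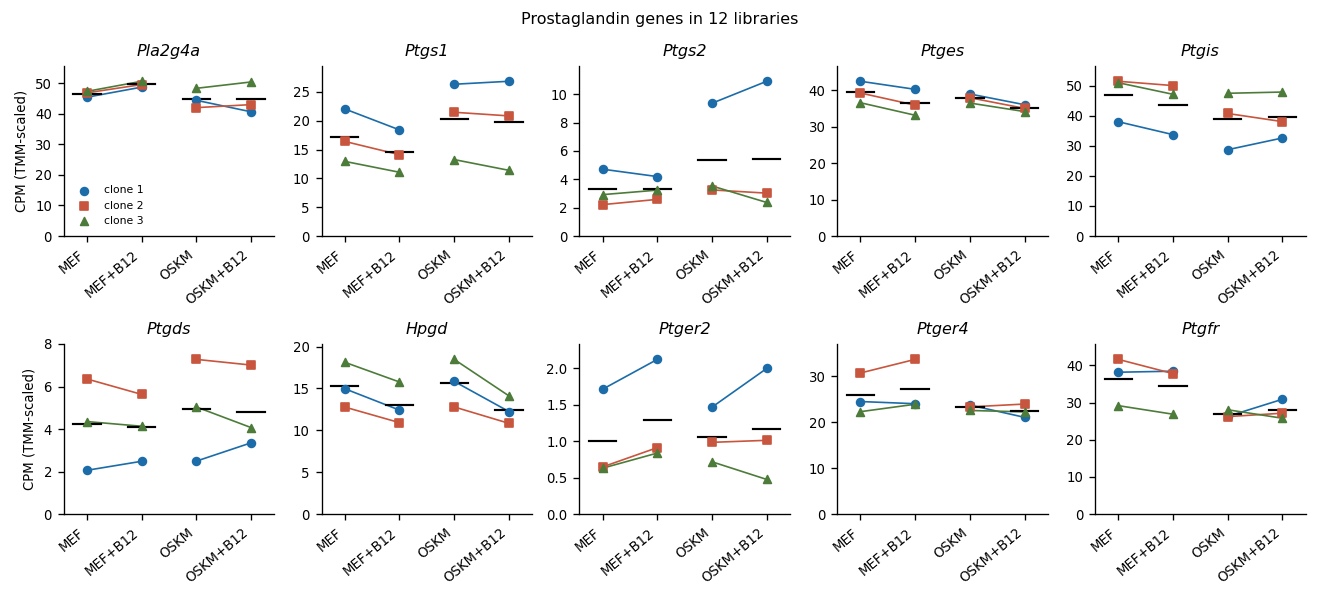
Level of each of the 10 genes (CPM with TMM-scaled totals, linear axis from 0) in each of 12 libraries, by group, with 1 marker and colour per clone, lines joining the libraries of a clone within MEF and within OSKM, and a black bar for the mean of 3. Hpgd, listed for its B12 difference, was lower with B12 in all 6 joined pairs, and Ptgs2 was highest in both induced libraries of clone 1, at 9.36 and 10.9 CPM.

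Hpgd (ENSMUSG00000031613, GRCm38 chr8:56294585-56321043, plus strand, 7 exon blocks) encodes the dehydrogenase that oxidises and so inactivates prostaglandins. Without B12 it was at 14.96, 12.77 and 18.12 CPM in MEF clones 1, 2 and 3, and at 15.84, 12.79 and 18.47 CPM in the OSKM libraries of the same clones. With B12 it was at 12.41, 10.92 and 15.77 CPM in MEF+B12 and at 12.24, 10.84 and 14.11 CPM in OSKM+B12. Within each clone both B12 libraries were below both libraries without B12, while the groups overlapped once clones were pooled, and clone 3 was highest and clone 2 lowest in every group. In bulk libraries, fewer cells that express a gene and less RNA per cell cannot be told apart.

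As a log2 difference the B12 libraries were lower by 0.32, 0.23 and 0.29 for Hpgd in clones 1, 2 and 3, averaged over both states. The fitted Hpgd difference was -0.28 ± 0.04 (log2, SE) over both states, -0.23 ± 0.06 in MEF and -0.33 ± 0.06 in OSKM. These differences are those for which the gene was listed. Of the variance of log2 CPM over 12 libraries, 64.6% lay between clones, 33.7% between groups and 1.73% in the rest, against medians of 38%, 24.4% and 27.2% over all 19174 genes tested. The share between groups includes the B12 difference for which Hpgd was listed, so this comparison is a description only.

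Induction had no part in the choice of Hpgd and could be tested. Averaged over both B12 states the log2 difference of OSKM against MEF was -0.01 ± 0.04 (95% interval -0.10 to 0.08), with an adjusted p of 0.869 from edgeR's quasi-likelihood test with Benjamini-Hochberg adjustment.

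The promoter windows of Hpgd and of both cyclooxygenases are shown because these genes are the exit and the entry of the pathway. Each holds 250 bases before the RefSeq start (GRCm38.p6), read 5′ to 3′ on the strand of the gene, with capitals marking the GC box, a motif bound by Sp1 (GGGCGG, searched on both strands). The windows are Hpgd at chr8:56294302-56294551, Ptgs1 at chr2:36230176-36230425 and Ptgs2 at chr1:150099781-150100030, all on the plus strand.
Hpgd: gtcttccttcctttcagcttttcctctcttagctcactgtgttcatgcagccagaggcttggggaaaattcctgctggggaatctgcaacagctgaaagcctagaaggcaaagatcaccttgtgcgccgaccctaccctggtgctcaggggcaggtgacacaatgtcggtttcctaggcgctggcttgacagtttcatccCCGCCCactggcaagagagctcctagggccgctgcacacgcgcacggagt
Ptgs1: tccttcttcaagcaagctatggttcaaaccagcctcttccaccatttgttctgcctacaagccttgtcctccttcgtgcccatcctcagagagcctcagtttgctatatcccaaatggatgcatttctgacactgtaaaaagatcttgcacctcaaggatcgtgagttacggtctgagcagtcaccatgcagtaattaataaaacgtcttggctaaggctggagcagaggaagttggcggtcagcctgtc
Ptgs2: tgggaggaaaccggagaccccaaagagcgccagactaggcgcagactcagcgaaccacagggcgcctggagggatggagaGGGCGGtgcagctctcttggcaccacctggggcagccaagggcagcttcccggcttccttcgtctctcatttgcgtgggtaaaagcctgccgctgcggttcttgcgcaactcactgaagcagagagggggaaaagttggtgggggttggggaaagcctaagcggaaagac
The Hpgd window held 1 GC box, on the minus strand at bases 201 to 206, and the Ptgs2 window held 1 on the plus strand at bases 81 to 86. The windows of Ptges, Ptger4 and Ptgfr also held it. The octamer bound by Oct4 (ATGCAAAT), the E-box bound by Myc (CACGTG), the cAMP response element bound by CREB (TGACGTCA), the motif of the TBP protein (TATAAA) and that of the NF-Y factor (CCAAT) were searched too and not found in the 3 windows shown, and no motif lies within another. Of 32851 promoter windows of this length, 32.7% held the GC box, 12.4% the TBP motif and 33.8% the NF-Y motif, whereas 1.55% held the cAMP response element, 6.02% the E-box and 1.6% the octamer. The Ptgs1 window contained 48% G and C, below the median of 52.4% over all windows, and those of Hpgd and Ptgs2 contained 56.8% and 61.6%.

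Among the other 9 genes, none passed an adjusted p of 0.05 for B12 against no B12, where 3.84% of the 19174 genes tested passed (edgeR, 663 or 3.46% higher and 73 or 0.381% lower). Within OSKM and within MEF, where 1.06% and 1.38% of genes passed, none of the 9 passed either. At an unadjusted p under 0.05, 1 of the 9 was reached in the average of both states, against 15.5% of all genes. DESeq2 also passed 0 of the 9, but its share of all genes is not set beside this count, which is a description only.

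That gene was Ptges, the inducible membrane-bound synthase that makes prostaglandin E2 (chr2:30889471-30929863, minus strand). It was at 42.5, 39.3 and 36.6 CPM in MEF clones 1, 2 and 3, at 40.3, 35.95 and 33.2 CPM in MEF+B12, at 39.02, 38.0 and 36.5 CPM in OSKM and at 36.1, 35.1 and 34.2 CPM in OSKM+B12. Ptges was lower with B12 in 6 of 6 pairs of libraries, with clone averages of -0.10, -0.12 and -0.12 (log2), although the pooled groups overlapped. The fitted difference was -0.11 ± 0.03 with an adjusted p of 0.119. In simulated data with these depths, 4% of genes with a true log2 difference of 0.15 and 44% of those with 0.25 were recovered. That simulation changed 50 genes of many levels at each size, fewer than the 736 that passed here for B12. It therefore does not show whether a difference of this size in Ptges could be detected.

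Ptgs1, the constitutive cyclooxygenase, gave -0.15 ± 0.07 with B12 (95% interval -0.30 to 0.00, adjusted p = 0.327), and was lower in 5 of 6 pairs. In MEF alone its difference was -0.24 ± 0.10 (adjusted p = 0.429), with 22.04, 16.4 and 12.95 CPM without and 18.4, 14.1 and 11.1 CPM with B12 in clones 1, 2 and 3. Fitted on the 6 MEF libraries alone, the difference was -0.23 and passed in edgeR (adjusted p = 0.0282). That fit also passed more of all genes than the fit on 12 libraries, as counted in the closing section. In OSKM the difference of Ptgs1 was -0.07 ± 0.10 (adjusted p = 0.862). The B12 difference between the states, tested as an interaction, passed for 0 of 19174 genes (0.00%, edgeR), with 273 genes (1.42%) but none of the 9 genes other than Hpgd at an unadjusted p under 0.05. DESeq2 also passed 0 genes.

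For the remaining genes the intervals of the B12 difference show what these libraries could resolve. Those of Pla2g4a (-0.05 to 0.13), the cytosolic phospholipase A2 that releases arachidonic acid, Ptgis (-0.16 to 0.08) and Ptger4 (-0.14 to 0.15) were narrow. The intervals of Ptgfr (-0.19 to 0.16), Ptgds (-0.22 to 0.22), Ptgs2 (-0.42 to 0.42) and Ptger2 (-0.13 to 0.56) were wider. The low Ptger2, with 31 to 147 counts a library, was higher with B12 in 5 of 6 pairs, and its fitted log2 difference of 0.22 ± 0.16 did not pass (adjusted p = 0.558).

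**Figure D2:**
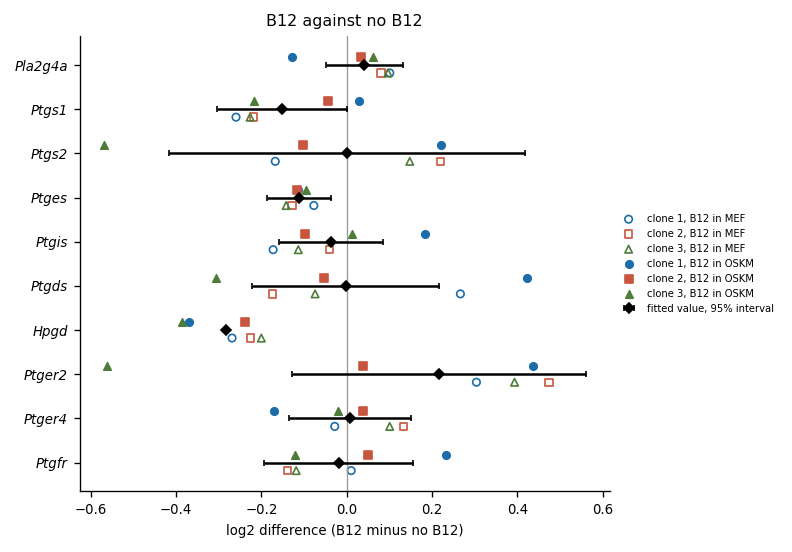
Log2 difference of B12 against no B12 for each gene, with open markers for MEF pairs and filled markers for OSKM pairs of each clone and black diamonds for the fitted average with its 95% interval (none is drawn for Hpgd, which was listed for this difference). Ptges lay below 0 in all 6 pairs, as did Hpgd, for which this was the reason it was listed.

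With induction, cyclooxygenase Ptgs1 rose and Ptgfr and Ptgis fell. On average over both B12 states, 3 of the 10 genes passed an adjusted p of 0.05 (edgeR), 1 higher and 2 lower, where 9.73% of all genes passed (856 or 4.46% higher and 1009 or 5.26% lower, but 1496 higher and 632 lower when library totals without TMM were used). At an unadjusted p under 0.05, 7 of 10 were reached, against 26.8% of all genes. None of the 10 passed in either B12 state alone, where 0.0730% of genes passed without B12 and 0.104% with B12. The averages over both states use the same libraries as those comparisons.

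Ptgs1 (chr2:36230426-36252272, plus strand) was higher in induced cells. Its OSKM libraries were at 26.3, 21.5 and 13.3 CPM in clones 1, 2 and 3 and its OSKM+B12 libraries at 26.8, 20.8 and 11.4 CPM. Without doxycycline it was at 11.1 to 22.04 CPM, so the pooled groups overlapped. Each induced library was above its uninduced partner, but only narrowly in clone 3, where the log2 difference was 0.04 against 0.40 and 0.47 in clones 1 and 2. The fitted difference was 0.31 ± 0.07, with an adjusted p of 0.0263.

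Ptgfr (chr3:151796502-151837630, minus strand) encodes FP, the receptor for prostaglandin F2α, and was lower in induced cells. It was at 38.2, 41.6 and 29.2 CPM in MEF and at 38.5, 37.8 and 26.9 CPM in MEF+B12 for clones 1, 2 and 3, against 26.3, 26.2 and 28.1 CPM in OSKM and 30.9, 27.2 and 25.8 CPM in OSKM+B12. Without B12 the 3 clones spread over 29.2 to 41.6 CPM uninduced and lay within 26.2 to 28.1 CPM induced, so these groups did not overlap, whereas with B12 the ranges of 26.9 to 38.5 and 25.8 to 30.9 CPM did. The fitted difference was -0.35 ± 0.08 (adjusted p = 0.0270), made of -0.43, -0.57 and -0.06 in clones 1, 2 and 3.

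Ptgis (chr2:167191805-167240604, minus strand), which makes prostacyclin, was also lower. It was at 38.1, 51.5 and 51.1 CPM in MEF, 33.8, 50.1 and 47.2 CPM in MEF+B12, 28.7, 40.8 and 47.5 CPM in OSKM and 32.6, 38.1 and 47.95 CPM in OSKM+B12. Of the 6 pairs, 5 were lower after induction, and the exception was clone 3 with B12. The fitted difference was -0.21 ± 0.06 (adjusted p = 0.0418), with -0.23, -0.37 and -0.04 in clones 1, 2 and 3. All 3 genes have exons that overlap a gene on the opposite strand by 148 to 329 bases, and the counts were made by strand.

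These 3 calls rested on clones 1 and 2. The fit took the pairs of a clone with and without B12 as separate, although they share the same embryo. Its SE and adjusted p therefore do not measure the spread between embryos alone. Without clone 3 the log2 differences were 0.44 (Ptgs1, adjusted p = 0.00106), -0.50 (Ptgfr, adjusted p = 0.00113) and -0.30 (Ptgis, adjusted p = 0.0153) in edgeR. Without clone 1, which leaves the clones of the same year, they were 0.26, -0.31 and -0.20 with adjusted p of 0.267, 0.262 and 0.267, and without clone 2 they were 0.23, -0.24 and -0.13 with adjusted p of 0.426, 0.426 and 0.435. Clone 1 alone holds the other year, so no test within it could be made. The number of all genes that passed also changed with a clone left out, as counted in the closing section. The lost calls therefore say nothing particular of these 3 genes. Without the OSKM library of clone 1 the edgeR adjusted p was 0.0493 for Ptgs1, 0.0568 for Ptgfr and 0.0807 for Ptgis. With library totals without TMM, Ptgis gave -0.16 (adjusted p = 0.0767).

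Ptgs2 (chr1:150100031-150108227, plus strand), the cyclooxygenase induced by growth factors and inflammatory signals, had the widest spread of responses among the clones. It was at 4.71, 2.21 and 2.92 CPM in MEF and 4.19, 2.58 and 3.24 CPM in MEF+B12 for clones 1, 2 and 3. In OSKM it was at 9.36, 3.25 and 3.53 CPM and in OSKM+B12 at 10.9, 3.02 and 2.37 CPM. The 2 induced libraries of clone 1 were far above the other 10, whereas clone 3 was higher after induction without B12 and lower with it. The fitted log2 difference was 0.54 ± 0.19 (95% interval 0.12 to 0.97), with an adjusted p of 0.0957 from edgeR's test, made of 1.18, 0.39 and -0.09 in clones 1, 2 and 3. DESeq2 gave 0.51 with an adjusted p of 0.0325.

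Ptger4 (chr15:5206661-5244187, minus strand) encodes EP4, a receptor for prostaglandin E2 that raises cAMP. It was at 24.5, 30.7 and 22.3 CPM in MEF, 24.03, 33.7 and 23.9 CPM in MEF+B12, 23.7, 23.3 and 22.6 CPM in OSKM and 21.1, 23.95 and 22.3 CPM in OSKM+B12. Clone 2 was the furthest below its uninduced partners, with a log2 difference of -0.44 against -0.12 and -0.04 in clones 1 and 3. The fitted value of -0.20 ± 0.06 did not pass in edgeR (adjusted p = 0.0734), while DESeq2 gave -0.20 with an adjusted p of 0.0366.

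The other genes did not pass. Pla2g4a (chr1:149829618-149961290) stayed between 40.7 and 50.6 CPM in all 12 libraries, the narrowest relative range of the set, and gave -0.10 ± 0.04 (adjusted p = 0.130), or -0.16 with an adjusted p of 0.0398 in edgeR without clone 3. Ptgds (chr2:25466709-25470046), a synthase of prostaglandin D2, gave 0.23 ± 0.10 (adjusted p = 0.157). Ptges gave -0.05 ± 0.03 (adjusted p = 0.333) and Ptger2 (chr14:44988195-45003820), the EP2 receptor, -0.02 ± 0.16 (adjusted p = 0.955).

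**Figure D3:**
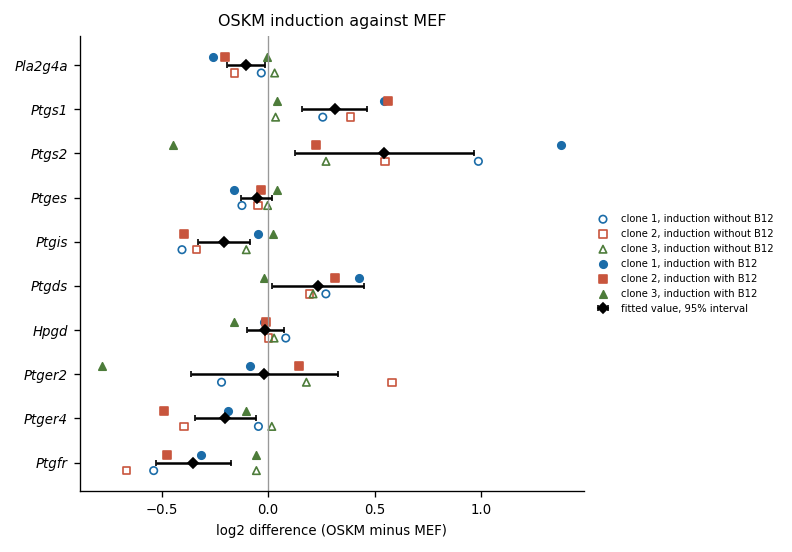
Log2 difference of OSKM against MEF for each gene, with open markers for pairs without B12 and filled markers for pairs with B12 of each clone and black diamonds for the fitted average with its 95% interval. The triangles of clone 3 lie near 0 for Ptgs1, Ptgis and Ptgfr, whose clone 3 averages were 0.04, -0.04 and -0.06, while clones 1 and 2 reach 0.56 for Ptgs1, -0.40 for Ptgis and -0.67 for Ptgfr.

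Whether induction acted unequally on the 3 clones was tested in edgeR with a clone by state term. None of the 10 genes passed, where 2.15% of all genes did, and 5 of 10 were reached at an unadjusted p under 0.05, against 14.8% of all genes. The smallest adjusted p were 0.0719 for Ptgs2, 0.0965 for Ptgfr, 0.105 for Ptgs1 and 0.118 for Ptger4. DESeq2 passed Ptgs2 and Ptgfr, with adjusted p of 0.00745 and 0.0319, and without the OSKM library of clone 1 edgeR passed Ptgs2, Ptgfr, Ptgs1 and Ptger4 (0.0122, 0.0177, 0.032 and 0.0408). The share of all genes that passed in these settings is not set beside these calls, so they are a description only. Clone 3 was also the clone with the low Pou5f1 given above, and in its induced libraries Sox2 was at 2.33 and 2.18 CPM, against 13.3 to 17.8 CPM in clones 1 and 2. The part of this lower induction in the differences between clones was not tested.

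Some genes listed as markers of cell types also moved with induction. Of 12 fibroblast markers 0 passed as higher and 4 as lower, but 6 of the 12 had a positive fitted difference and the median was -0.08. Their summed level was 112300 to 142017 CPM without and 88258 to 116589 CPM with doxycycline. Most of that sum was Col1a1, Col1a2 and Col3a1, with means of 34562, 29453 and 35956 CPM over all libraries. Of the 4 endothelial markers tested 3 were higher, and the list summed to 41.8 to 46.6 CPM without and 48.9 to 145.2 CPM with doxycycline, the lowest induced sums being those of clone 3. Most of that sum was Tek, at 34.3 to 138.6 CPM over all libraries, while Pecam1, Emcn and Cldn5 were at most 0.279 CPM. Of 5 epithelial markers tested 3 were higher, with a summed level of 4.96 to 7.999 CPM without and 7.26 to 21.1 CPM with doxycycline, and of 5 mesothelial markers 2 were higher (21.8 to 34.9 against 28.9 to 64.4 CPM). Most of the epithelial sum was Krt19, at 3.70 to 17.5 CPM, while Epcam and Cdh1 were at most 0.611 CPM. Of 4 muscle markers tested 2 were lower (275.1 to 497.1 against 187.5 to 465.9 CPM), as was 1 of 3 nerve and glia markers, and of 13 macrophage markers 1 was higher and 2 were lower. Most of the muscle sum was Acta2, at 183.1 to 473.9 CPM over all libraries. In bulk libraries a change in cell numbers and a change of RNA within cells cannot be told apart. The part of these markers in the differences of Ptgs1, Ptgfr and Ptgis was not tested.

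For several genes most of the variance lay between clones. Between clones lay 90.4% of the variance of log2 CPM for Ptgds, 85.5% for Ptger2, 78% for Ptgs1, 74.3% for Ptgis and 69.1% for Ptgs2, against 38% for the median gene. Ptgds was at 2.06 to 3.35 CPM over the 4 libraries of clone 1, 5.63 to 7.28 CPM in clone 2 and 4.07 to 5.04 CPM in clone 3, with no overlap between clones. Ptger2 was at 1.47 to 2.12 CPM in clone 1 and at most 1.01 CPM in clones 2 and 3. With 1 embryo per clone these are a description of 3 embryos. Ptgfr, at 23.8%, and Pla2g4a, at 36.2%, lay below the median gene.

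The transcripts most like Hpgd were sought over the 12 libraries after each clone's mean was removed, among 11982 genes with a mean log2 CPM of at least 1. The 5 with the highest Pearson correlation were Ssbp3 (0.952), Maob (0.926), Sorbs3 (0.926), Abcg1 (0.925) and Npr2 (0.915), with Spearman's rho of 0.916, 0.916, 0.916, 0.86 and 0.727. The points share the 4 groups and, within a clone, 1 embryo, so the values describe these libraries only. They also include the B12 difference for which Hpgd was listed. Genes that were lower with B12 therefore rank high, Ptges among them, and the ranking is no separate result. Of the set itself Ptges came closest, at rank 571 with a Pearson correlation of 0.689. Without the OSKM library of clone 1, Ssbp3 stayed among the first 5 at 0.954 and Ptges moved to rank 251 at 0.81. The ranking depended on removing the clone means. With them kept, the first 5 were Clip3, Tspan6, Ccser2, Zeb1 and Sall2 (0.93 to 0.911), Ptges fell to rank 5650 at 0.0174, and Pla2g4a was the closest of the set at rank 2688 with 0.302.

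A wider list of 51 prostanoid and related lipid genes, of which 39 were tested, was read beside the set. With B12, 5 of the 39 were higher and 0 lower at an adjusted p of 0.05, against 3.46% higher and 0.381% lower over all genes, with a median log2 difference of 0.01 against -0.01 over all genes. Of 11 synthases and reductases 3 were higher: Hpgds, the haematopoietic prostaglandin D synthase, by 0.72 ± 0.08 (adjusted p = 0.000707), Tbxas1, which makes thromboxane A2, by 0.64 ± 0.09 (adjusted p = 0.00191), and the aldo-keto reductase Akr1b8 by 0.47 ± 0.08 (adjusted p = 0.00719). Alox5ap, which presents arachidonic acid to 5-lipoxygenase in leukotriene synthesis, was higher by 0.75 ± 0.07 (adjusted p = 0.00027), and the exporter Abcc1 by 0.32 ± 0.03 (adjusted p = 0.000294). None of the 5 tested receptors and partners and none of the 7 other phospholipases A2 passed.

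Hpgds stood at 25.1, 21.8 and 17.2 CPM in MEF clones 1, 2 and 3 and at 38.1, 41.4 and 31.03 CPM in MEF+B12. In OSKM it was at 23.2, 18.9 and 17.02 CPM and in OSKM+B12 at 27.3, 33.6 and 30.8 CPM. Hpgds and Hpgd therefore lay in opposite directions with B12, and every B12 library was above every library without B12 for Hpgds. Without clone 2 the adjusted p of these genes in edgeR was 0.0840 for Hpgds and Tbxas1, 0.188 for Akr1b8, 0.0586 for Alox5ap and 0.0567 for Abcc1. Without clone as a block the call in edgeR also ended for Tbxas1 (adjusted p = 0.754), Akr1b8 (0.0593), Alox5ap (0.174) and Abcc1 (0.113), with log2 differences of 0.60, 0.47, 0.72 and 0.32. Without the block or without a clone, the number of all genes that passed also changed, as counted in the closing section. These lost calls therefore say nothing particular of these genes.

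Most macrophage markers were also higher with B12, as were 663 of all genes tested (3.46%). Of 13 markers, 12 were higher with B12 and passed (median log2 difference 0.56), and the exception was Cx3cr1 at -0.45 ± 0.20 (adjusted p = 0.296). Their summed level was 1343 to 2582 CPM in MEF, 2025 to 3418 in MEF+B12, 1381 to 2383 in OSKM and 2122 to 2792 in OSKM+B12, and none was at 0 in any library. The largest part of that sum was Lyz2, with a mean of 1182 CPM over all libraries. Of 12 fibroblast markers 0 passed as higher and 1 as lower, but 0 of the 12 had a positive fitted difference and the median was -0.11. The 5 markers of mast cells summed to at most 0.346 CPM. The part of the macrophage markers in the differences of Hpgds, Tbxas1, Akr1b8, Alox5ap, Abcc1, Hpgd or Ptges was not tested.

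**Figure D4:**
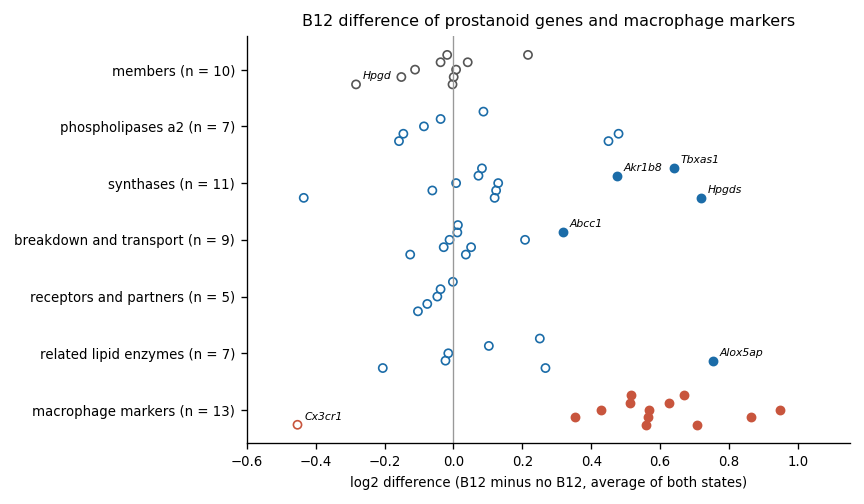
Fitted log2 difference of B12 against no B12, averaged over both states, for the 10 genes, for the tested genes of the wider list by class and for 13 macrophage markers, with filled points for an adjusted p under 0.05 (Hpgd was not tested and is drawn open). Of the 5 filled genes of the wider list, Hpgds, Tbxas1, Akr1b8 and Alox5ap, at 0.72, 0.64, 0.47 and 0.75, lie within the range of the macrophage markers that passed, which was 0.35 to 0.95, and Abcc1 lies below it at 0.32. A relation between these genes and the markers was not tested.

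With induction, 3 of the 39 genes were higher and 2 lower on average over both B12 states, near the 4.46% higher and 5.26% lower over all genes, so the count says nothing particular of the list. Alox5, the 5-lipoxygenase of leukotriene synthesis, was higher by 0.87 ± 0.16 (adjusted p = 0.0203), Ltc4s, the leukotriene C4 synthase, by 0.74 ± 0.17 (adjusted p = 0.0277) and Ptgr3, a prostaglandin reductase annotated as Zadh2, by 0.11 ± 0.03 (adjusted p = 0.0447). Ptgr1, another prostaglandin reductase, was lower by 0.20 ± 0.05 (adjusted p = 0.0279) and the transporter Slco3a1 by 0.22 ± 0.05 (adjusted p = 0.0258). Both leukotriene genes were low, with Alox5 at 2.88 ± 0.734 CPM in MEF and 5.88 ± 2.98 CPM in OSKM and Ltc4s at 1.21 ± 0.187 and 2.30 ± 1.07 CPM (mean ± SD, n = 3). In clone 3 their log2 differences were 0.18 and 0.08. In edgeR all 5 lost the call without clone 1 and without clone 2, with adjusted p of 0.262 to 0.275 and 0.426, and 4 of them, all but Alox5, without the OSKM library of clone 1 (0.0530 to 0.0584). Ptgr3 also lost it without clone 3 (edgeR, adjusted p = 0.0596). The number of all genes that passed also changed in these settings, as counted in the closing section. The lost calls therefore say nothing particular of these genes.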

How the data were processed

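Poly(A) RNA was sequenced from 12 MEF libraries in 4 groups of 3 clones. Per the labels and the methods of the study, reads were aligned with STAR (2.5.2 in the submitters' processing notes) to mm10 (GRCm38) and assigned by strand to Ensembl genes with featureCounts, and the runs of a library on several flow cells were summed. The deposited table holds raw counts by gene, and each library's column was mapped by its title. The members and lists were chosen with earlier results of these data known.

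Of 55573 genes, 55480 were matched to GENCODE M21. Genes were filtered by filterByExpr (19174 kept), scaled by TMM (factors 0.934 to 1.06) and tested with edgeR 4.0.16 in R 4.3.3 (quasi-likelihood F test, group and clone as terms, all 12 libraries, Benjamini-Hochberg over all genes tested, threshold 0.05). P-values come from 3 embryos. In averages over both states, both pairs of an embryo entered the fit as separate. The SE and p of such averages therefore do not measure the spread between embryos alone. Libraries of the same clone deviated together (r of 0.27 to 0.687 in 18 pairs, against -0.51 to 0.17 in 36 pairs of different clones), and the clone number marks the embryo, so clone was a block. Group means were removed before these correlations, which itself lowers the values between different clones. The range between different clones is therefore no separate support for the block. SE is the log2 difference over the root of F. CPM uses TMM-scaled totals, log2 CPM a prior count of 2, and RPKM the GENCODE exon length. DESeq2 1.42.0, other normalisations, other filters, no block and each clone left out were alternatives. The fit was tested on simulated data, in which 50 of 50 genes changed by a log2 of 1, 37 of 50 changed by 0.5 and 22 of 50 changed by 0.25 were recovered for B12 over 18974 genes.

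All 10 genes are described, with the genes of the wider list that passed and the 5 genes most correlated with Hpgd. Promoter windows were taken from RefSeq (GRCm38.p6), which held one for 9 of the 10 genes. Shared sequence of 31 bases with other genes was at most 0.357% of a gene.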

Additional observations from a re-analysis of the deposited data

Results flagged for a closer look

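The response to induction differed between clones for 2 of the 39 tested genes of the wider list, where 2.15% of all genes passed that test. Slco2a1, the prostaglandin transporter that carries prostaglandins into cells, had an adjusted p of 0.0288 for the clone by state term in edgeR, with log2 differences of 0.52, 0.55 and -0.07 in clones 1, 2 and 3. Mgll, the monoacylglycerol lipase, had an adjusted p of 0.0284, with 0.52, 0.17 and -0.06. Without clone 3 the adjusted p were 0.976 and 0.871, and without clone 1 that of Mgll was 0.194.

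In Hpgd the 3 clones were higher after induction without B12, by 0.08, 0.00 and 0.03 on the log2 scale, and lower after induction with B12, at -0.02, -0.01 and -0.16. The mean of the difference between both was -0.10. No p is given for it, since it rests on the B12 difference for which Hpgd was listed.

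Pla2g6, a calcium-independent phospholipase A2, was lower with B12 in OSKM in all 3 clones, by 0.06, 0.09 and 0.11 on the log2 scale, and higher in MEF by 0.01, 0.02 and 0.01. The mean of the difference was -0.10, and the interaction had an adjusted p of 1 in edgeR.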

How the results depend on the processing

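With clone 1, 2 or 3, or the OSKM library of clone 1, left out, 34 to 785 genes passed for B12 on average (736 with all libraries), 0 to 224 for B12 in OSKM (204) and 0 to 334 in MEF (264). For induction 1 to 1322 passed without B12 (14), 1 to 1004 with B12 (20), 3 to 3056 on average (1865) and 0 to 838 for the response between clones (413). The same settings passed 0 to 6 members for induction on average (3) and 0 to 4 between clones (0). Without the replicate block (clone), 90 genes passed for B12 on average and 0 for B12 in either state and for induction without B12, with B12 and on average (763, 797, 1350, 927 and 2407 at an unadjusted p under 0.05 in edgeR), and 0 members for induction on average, the calls of Ptgs1, Ptgfr and Ptgis ending at adjusted p of 0.606, 0.218 and 0.636. DESeq2 passed 385 and 461 for B12 in OSKM and in MEF, 492 and 420 for induction without and with B12, and 5 members for induction on average and 2 between clones. Without a filter the same counts were 364, 425, 681, 646, 5 and 4, with 1257 genes between clones. At least 10 counts in every library passed 2 and 1 for induction without and with B12, library totals without TMM passed 409 for B12 in MEF, and the 6 libraries compared alone passed 108, 845, 4 and 6. The cause of these changes was not tested. For DESeq2, and for induction on average without a filter, the member counts stand without the share of all genes. Those counts say nothing particular of the members.

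Signs turned only where the adjusted p stayed above 0.65. For B12 on average this was so for Ptgs2 (-0.0022 in DESeq2, -0.00071 with its size factors, -0.00063 without a filter, -0.068 to 0.069 over libraries left out), Ptgds (0.023 with library totals without TMM, -0.15 to 0.10 left out), Ptger4 (-0.031 to 0.063 left out) and Ptgfr (0.0074 with library totals without TMM, -0.086 to 0.053 left out), and in OSKM for Ptgs1 (-0.12 to 0.0050 left out). For induction it was so for Ptgs2 with B12 (-0.11 to 0.87 left out), Hpgd (0.033 with library totals without TMM, -0.036 to 0.014 left out) and Ptger2 (0.029 with library totals without TMM, -0.19 to 0.096 left out).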
